A study of Mus musculus with 6 samples.

Results

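The tight junction was followed through 9 genes in sorted olfactory stem cells, 5 claudins (Cldn1, Cldn3, Cldn4, Cldn7 and Cldn12), occludin (Ocln), junctional adhesion molecule A (F11r) and the scaffolds ZO-1 (Tjp1) and cingulin (Cgn). They were taken by name, and 12 of the 44519 rows of the expression table name one of these 9 genes. Ocln has 3 rows and Cldn4 has 2. The row with the highest mean was used for each gene.

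Tight junctions seal the space between epithelial cells near their apical side. Claudins span the membrane and form the seal or the ion-selective pores within it, occludin and junctional adhesion molecules span the membrane beside them, and ZO-1 and cingulin tie them to actin. TNF is known to loosen this barrier in intestinal epithelium, and in stratified and pseudostratified epithelia the basal cells express some of these genes although the seal lies apical to them.

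The cells were GFP-positive horizontal basal cells, the reserve stem cells of the mouse olfactory epithelium, sorted from olfactory neuroepithelium. All mice carried the Krt17-EGFP reporter. The 3 control libraries (replicates 1, 2 and 4) came from mice with this reporter alone, labelled as without doxycycline. The 3 TNF libraries (replicates 1, 3 and 4) came from mice of genotype Krt17-EGFP; Cyp2g1-rtTA; TRE-TNF, labelled as 6 weeks of doxycycline, in which doxycycline lets the Cyp2g1 promoter of sustentacular cells switch on a TNF transgene. Ages are not given in the labels, and genotype, transgene and doxycycline differ together and cannot be told apart. The labels do not say whether each library is a separate animal, so p-values measure the spread between these samples, which may be technical.

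Expression is given as FPKM, fragments per kilobase of transcript scaled to the mapped fragments, and the read depth is unknown. Differences are TNF minus control on the log2(FPKM + 1) scale with their standard error, which understates changes of low genes, and a gene was called at a Benjamini-Hochberg adjusted p under 0.05 in limma over all 15037 rows tested. Of those rows 38.0% were called, 10.9% higher and 27.2% lower, and their median difference was -0.22. That split of 1635 higher and 4083 lower rows became 2282 and 3198 with median-of-ratios scaling, 2188 and 3185 with upper-quartile scaling and 2735 and 2965 with quantile normalization, which moved the median to -0.01, -0.01 and 0.05. Control replicate 4 and TNF replicate 1 stood apart, with correlations across genes of 0.922 to 0.931 and 0.909 to 0.912 with the other libraries of their groups against 0.972 and 0.983 between those others. Tnf rose, with a mean of 14.4 FPKM in controls, which lack the transgene, against 112 FPKM in TNF libraries (3.11 ± 0.49, adjusted p = 0.00346). Whether its reads came from the transgene or from the cells' own Tnf gene was not tested. Of 9 rows of horizontal basal cell markers, 4 rose (Cdh3, Col17a1, Itga6 and Itgb4) and 0 fell. Trp63, the defining transcription factor of these cells, was at 68.6 to 86.1 FPKM in controls and 79.7 to 117 FPKM with TNF. Krt5 was at 151 to 344 and 402 to 1011 FPKM, and the row shared by Krt14 and Krt17 at 402 to 2265 and 3645 to 5651 FPKM. Trp63, Krt5 and the shared row did not pass (adjusted p = 0.196, 0.110 and 0.0741). All 10 mature olfactory neuron markers fell, from sums of 3386 to 6657 FPKM to 1150, 46.4 and 36.8 FPKM in TNF replicates 1, 3 and 4. In a sorted bulk sample, fewer cells of a type and less RNA per cell cannot be told apart.

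The promoters of 5 members are shown. Cldn4, F11r and Cgn are those with a motif match, and Cldn3 and Cldn7, the most abundant members, have none, nor do the windows of Cldn1, Cldn12, Ocln and Tjp1, which are not shown. Each run is the 250 bases before the gene's start in RefSeq (GRCm38.p6), 5′ to 3′ on the gene's own strand, with capitals marking matches to the AP-1 motif TGANTCA or the Grhl motif AACNGGTT.
Cldn4: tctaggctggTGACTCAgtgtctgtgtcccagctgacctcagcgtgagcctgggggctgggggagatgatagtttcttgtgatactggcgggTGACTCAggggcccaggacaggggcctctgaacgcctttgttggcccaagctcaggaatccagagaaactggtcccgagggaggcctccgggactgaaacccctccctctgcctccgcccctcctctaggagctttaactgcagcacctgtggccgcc
Cldn3: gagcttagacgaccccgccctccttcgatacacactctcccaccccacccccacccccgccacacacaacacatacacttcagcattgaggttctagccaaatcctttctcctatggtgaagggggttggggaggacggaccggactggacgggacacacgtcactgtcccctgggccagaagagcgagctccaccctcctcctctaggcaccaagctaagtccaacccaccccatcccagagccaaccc
Cldn7: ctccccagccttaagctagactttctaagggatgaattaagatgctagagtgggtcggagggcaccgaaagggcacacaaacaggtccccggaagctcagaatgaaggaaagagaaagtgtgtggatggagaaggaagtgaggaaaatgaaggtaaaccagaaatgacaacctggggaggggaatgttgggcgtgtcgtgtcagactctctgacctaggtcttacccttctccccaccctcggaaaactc
F11r: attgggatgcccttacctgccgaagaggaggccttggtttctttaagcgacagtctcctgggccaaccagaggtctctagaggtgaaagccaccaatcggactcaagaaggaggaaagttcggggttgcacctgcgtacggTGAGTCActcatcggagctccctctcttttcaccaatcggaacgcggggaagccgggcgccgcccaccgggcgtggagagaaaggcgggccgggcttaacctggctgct
Cgn: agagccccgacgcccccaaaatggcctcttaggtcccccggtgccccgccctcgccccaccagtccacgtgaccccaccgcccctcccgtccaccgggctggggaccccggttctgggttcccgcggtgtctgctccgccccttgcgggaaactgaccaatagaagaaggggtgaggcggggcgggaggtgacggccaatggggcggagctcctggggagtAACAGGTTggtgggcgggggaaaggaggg

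These windows lie at chr5:134946935-134947184 on the minus strand (Cldn4), chr5:134985964-134986213 on the plus strand (Cldn3), chr11:69964529-69964778 on the plus strand (Cldn7), chr1:171437311-171437560 on the plus strand (F11r) and chr3:94786483-94786732 on the minus strand (Cgn). Cldn7 has a second RefSeq start, whose window (chr11:69965171-69965420) is not shown and holds no match. RefSeq starts were found for all 9 members, in 13 windows. The AP-1 motif, bound by Fos and Jun proteins, stood in 2 of these windows, with 2 matches in Cldn4 that begin at -240 and -158 from the start and 1 in F11r at -109, while 6.75% of all 32851 windows hold one. The motif of the grainyhead-like (Grhl) factors, regulators of epithelial junction genes, stood in the Cgn window at -29, against 1.79% of all windows. The NF-kB consensus stood in 0 of the 13 windows and in 5.00% of all. Both strands were searched, no 2 matches overlap, and a match or its absence describes letters in this window only.

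In the TNF libraries 5 of the 9 genes rose (Cldn4, Cldn7, Ocln, F11r and Cgn), Cldn3 and Cldn12 fell, and Cldn1 and Tjp1 did not pass the test. Over all tested rows 10.9% were called higher and 27.2% lower. The count of 5 that rose was 1 when control replicate 1, or either of TNF replicates 3 and 4, was omitted, 2 without control replicate 2 or 4, 6 without TNF replicate 1, and 5 with control replicate 4 and TNF replicate 1 both omitted, while 2 fell in each case. Over the whole table, the omission of 1 library left 795 to 2016 rows higher and 1609 to 4924 lower. Scaled to horizontal basal cell markers, 1 member rose (Cldn4) and 2 fell, beside 296 rows higher and 8961 lower over the table. The median difference of the 9 was 0.61, beside -0.22 over all tested rows. All 9 passed the filter on low values, Cldn1 only through control replicate 4 and TNF replicates 3 and 4. The groups did not overlap for 7 of the 9, against 53.0% of all tested rows (16.8% higher and 36.2% lower). By mean FPKM the order in control libraries was Cldn3 (214), Cldn7 (123), F11r (112), Cldn12 (24.7), Ocln (11.9), Tjp1 (5.84), Cgn (3.80), Cldn4 (3.03) and Cldn1 (0.711). The neighbours Cldn7 and F11r overlapped there, as did Tjp1 with Cgn and Cgn with Cldn4. In TNF libraries the order was Cldn7 (290), F11r (171), Cldn3 (80.4), Cldn4 (35.9), Ocln (23.9), Cldn12 (12.7), Tjp1 (9.32), Cgn (7.30) and Cldn1 (1.79). The neighbours Cldn4 and Ocln overlapped there, and Tjp1 overlapped with Cldn12 and Cgn.

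**Figure D1:**
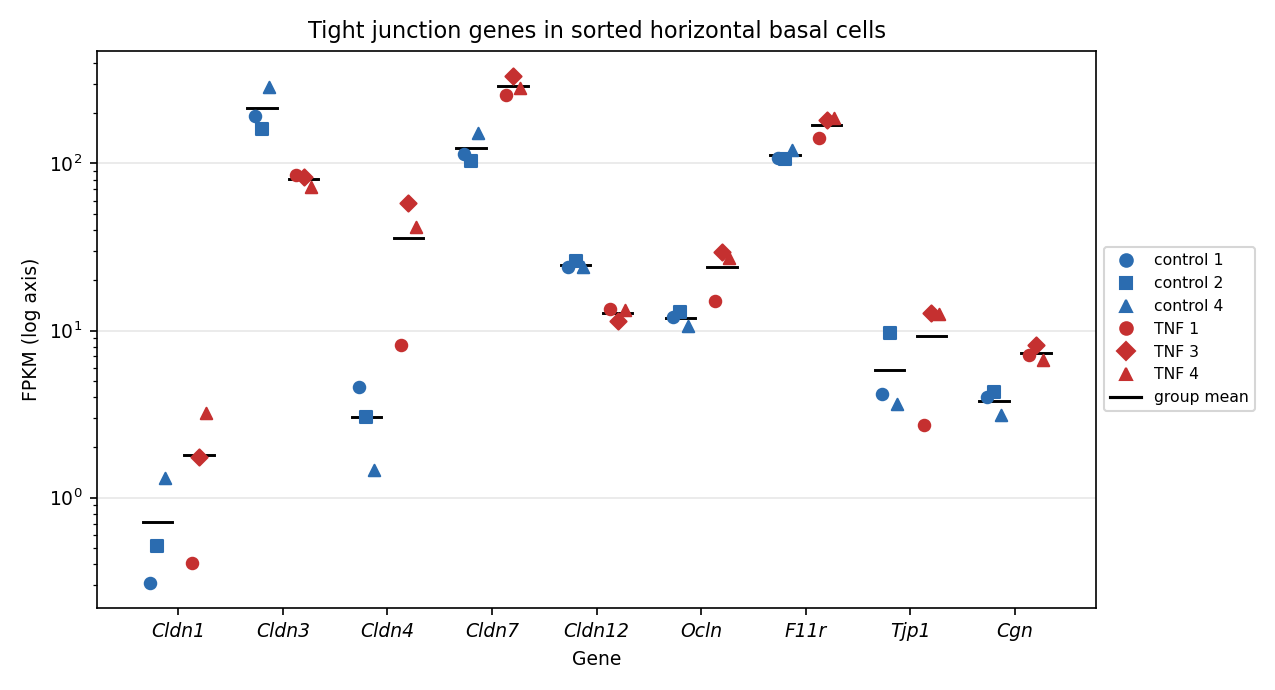
FPKM of the 9 tight junction genes on a log axis in each of the 6 libraries, control in blue and TNF in red, marker shape giving the replicate and the black line the group mean. Cldn3 and Cldn12 lie lower and Cldn7 higher in every TNF library, while the TNF values of Cldn4 spread from 8.23 to 57.8 FPKM.

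Cldn7 is a claudin of simple and stratified epithelia that also sits along the lateral membrane and binds Epcam. Its row spans chromosome 11, 69964779 to 69967885 (mm10), the whole gene. The controls, here and later in the order of replicates 1, 2 and 4, read 114, 103 and 152 FPKM. The TNF libraries, in the order of replicates 1, 3 and 4, read 256, 333 and 282 FPKM. Every TNF library lay above every control, a 2.36-fold difference of means, and the rise was 1.24 ± 0.21 (adjusted p = 0.00423). It passed when any 1 library was left out. Scaled to the horizontal basal cell markers, the difference was 0.03 (adjusted p = 0.956), and 4 of those 9 marker rows had risen.

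Cldn3 is a sealing claudin and, with Cldn4, a receptor of Clostridium perfringens enterotoxin. It was the most abundant claudin in control libraries, at 192, 162 and 289 FPKM, and stood at 85.8, 82.5 and 72.8 FPKM in the TNF libraries. All TNF libraries were lower, with a narrow spread (80.4 ± 6.77 FPKM, SD, n = 3, against 214 ± 66.2), and the difference was -1.36 ± 0.24 (adjusted p = 0.00504). The TNF mean was 37.5% of the control mean. Cldn3 was called lower in all 17 alternative settings. Its row (chromosome 5, 134986211 to 135001350) covers the opposite-strand gene Wbscr25, whose exons overlap those of Cldn3, so reads of the 2 genes may be mixed if strand was not used. The Wbscr25 row itself held 1.69 FPKM in controls and 0.502 FPKM with TNF on average.

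Cldn4, a sealing claudin that is induced in many stressed epithelia, starts 39.3 kb from Cldn3 on chromosome 5 (134945123 to 134946934, minus strand). It was at 4.58, 3.06 and 1.46 FPKM in control libraries against 8.23, 57.8 and 41.8 FPKM with TNF. The groups did not overlap, but TNF replicate 1 lay close to the controls and the other TNF libraries far above them. The rise was 2.90 ± 0.71 (adjusted p = 0.0184), 11.9-fold between means, and this was the largest difference among the 9. The call was lost when any library except TNF replicate 1 was left out (adjusted p = 0.0517 to 0.0721), with a difference of 2.38 to 3.18. Without TNF replicate 1 it was 3.72. The second Cldn4 row was listed at 0 in the controls and at 0.0529 to 0.116 FPKM with TNF.

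The genes around this pair gave different results, and they were chosen for their position after values had been seen. Wbscr27, next to Cldn4, was at 7.67 to 17.2 FPKM in controls and 19.0 to 24.0 FPKM with TNF (0.78 ± 0.29, adjusted p = 0.0786). Abhd11, on the far side of Cldn3, was at 40.2 to 43.3 and 38.8 to 65.2 FPKM (adjusted p = 0.491). Stx1a, a neuronal syntaxin, fell by 3.59 ± 0.29 on the log2 scale (adjusted p = 0.000460). Cldn13, the next claudin along this stretch, was listed at 0 in the controls and in TNF replicate 1.

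Cldn12, a claudin without the usual PDZ-binding end, was at 24.1, 26.1 and 23.9 FPKM in controls and at 13.5, 11.4 and 13.2 FPKM with TNF. Its row spans chromosome 5, 5489537 to 5514958. The replicates were close in both groups and the TNF level was 51.5% of the control level (-0.91 ± 0.16, adjusted p = 0.00500). Every omission of 1 library kept the call. Cldn1, the claudin on which the skin barrier depends, was low throughout, at 0.311, 0.516 and 1.31 FPKM in controls and 0.408, 1.76 and 3.21 FPKM with TNF. The groups overlapped in this row (chromosome 16, 26356642 to 26371841), and its difference of 0.61 had a 95% confidence interval of -0.41 to 1.63 (adjusted p = 0.303). It passed without TNF replicate 1 (1.04, adjusted p = 0.0436).

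Shares and ratios of the claudins within a library do not depend on scaling between libraries, while their sum does. Of 23 claudin genes in the table, 13 reached 1 FPKM in at least 1 library and 2 (Cldn18 and Cldn19) were listed at 0 in all. Their summed FPKM was 528 ± 138 in control and 478 ± 59.3 in TNF libraries (SD, n = 3 each, exact permutation p = 0.7, two-sided, where 0.1 is the smallest possible). Cldn3 made up 38.4%, 39.8% and 42.6% of this sum in control replicates 1, 2 and 4 and 20.4%, 15.3% and 15.3% in TNF replicates 1, 3 and 4. Cldn7 made up 22.7%, 25.4% and 22.4% in control and 60.9%, 61.8% and 59.4% in TNF libraries. The leading claudin thus differed between groups in every library.

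The ratio of Cldn7 to Cldn3 was 0.592, 0.638 and 0.526 in control and 2.99, 4.04 and 3.87 in TNF libraries, without overlap (exact permutation p = 0.1, two-sided, the smallest possible). The share of Cldn4 was 0.915%, 0.753% and 0.215% in the controls and 1.96%, 10.7% and 8.81% with TNF. Together Cldn3 and Cldn7 made up 61.2%, 65.3% and 65.0% of the sum in controls and 81.3%, 77.1% and 74.7% with TNF. Relative to F11r, Cldn7 stood at 1.09 ± 0.148 in controls and 1.71 ± 0.183 with TNF (SD, n = 3 each, exact permutation p = 0.1), so the groups were apart in this ratio too. The ratio of Cldn12 to Cldn3 was 0.0828 to 0.161 in control and 0.138 to 0.182 in TNF libraries and overlapped (exact permutation p = 0.3).

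**Figure D2:**
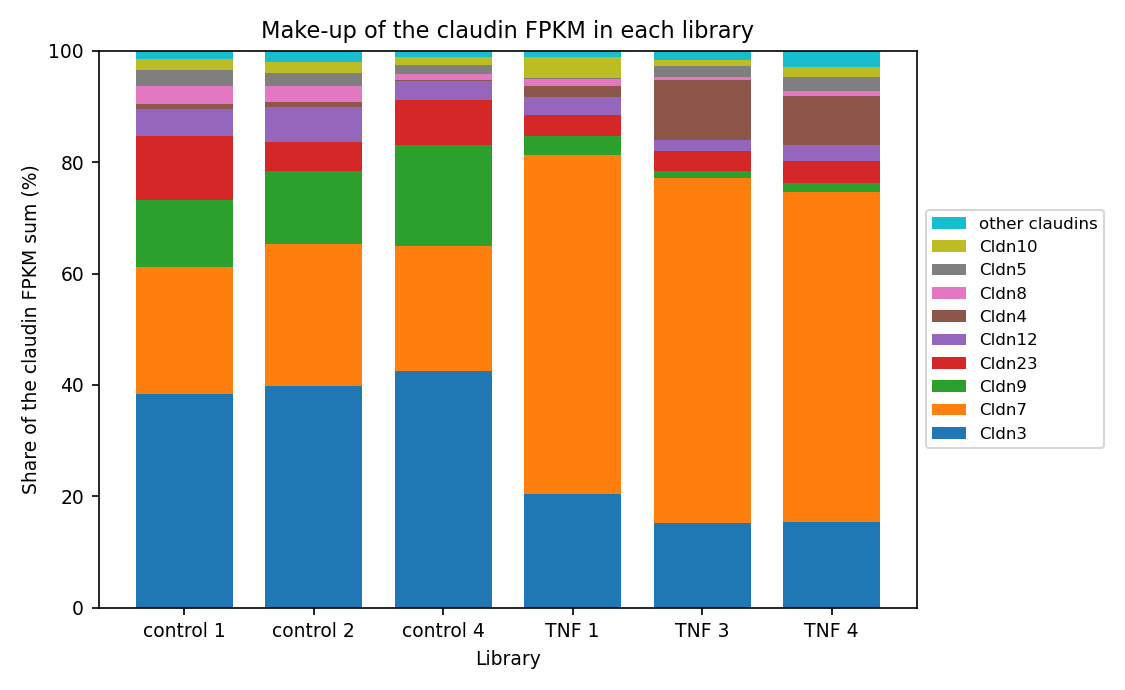
Share of each claudin in the summed claudin FPKM of each library, in percent. Claudins outside the 9 named in the legend, among them the member Cldn1, are pooled at the top. Cldn3 (blue, bottom) takes 38.4% to 42.6% of the control bars and Cldn7 (orange) takes 59.4% to 61.8% of the TNF bars.

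Ocln encodes occludin, the MARVEL-domain protein of the junction strand. Its main row (chromosome 13, 100496507 to 100554253) was at 12.1, 12.9 and 10.7 FPKM in controls and 15.1, 29.7 and 27.0 FPKM with TNF. TNF replicate 1 lay just above the controls and TNF replicates 3 and 4 further above, a 2.02-fold difference of means without overlap. The difference was 0.90 ± 0.28 (adjusted p = 0.0403). A second Ocln row at the same locus ran the other way at a low level, with 0.823, 1.46 and 2.997 FPKM in controls and 0, 0 and 0.115 FPKM with TNF. F11r, an immunoglobulin-type adhesion molecule that also guides leukocytes across epithelia, was at 107, 107 and 121 FPKM in controls and 143, 182 and 188 FPKM with TNF. In this row (chromosome 1, 171437535 to 171464603) all TNF libraries were higher, by 1.53-fold in mean (0.60 ± 0.17, adjusted p = 0.0313). The calls of Ocln and F11r were both lost when any library except TNF replicate 1 was left out (adjusted p = 0.0875 to 0.142 and 0.0530 to 0.129), and scaled to horizontal basal cell markers their differences were -0.24 and -0.61.

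Among the scaffolds, cingulin and ZO-1 gave different results. Cgn was at 3.99, 4.26 and 3.15 FPKM in controls and 7.10, 8.14 and 6.65 FPKM with TNF. In this row (chromosome 3, 94760069 to 94786492) the groups were apart and the difference was 0.79 ± 0.20 (adjusted p = 0.0219). Omitting control replicate 1, or either of TNF replicates 3 and 4, ended that call (adjusted p = 0.0629 to 0.0980), and the difference was -0.23 when scaled to horizontal basal cell markers. Tjp1, the ZO-1 scaffold, was at 4.15, 9.74 and 3.64 FPKM in controls and at 2.72, 12.7 and 12.6 FPKM with TNF. TNF replicate 1 held the lowest value of all and TNF replicates 3 and 4 the highest, so the groups overlapped (0.48, 95% confidence interval -0.93 to 1.89, adjusted p = 0.562). The Tjp1 row (chromosome 7, 65296165 to 65371239) ends short of the gene's longest GENCODE M21 model, which reaches 65527781.

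The TNF libraries were not alike for these genes, and the markers of other cells differed with them. Cldn4, Ocln, Cldn1, Tjp1, F11r and Cldn7 were lower in TNF replicate 1 than in TNF replicates 3 and 4, while Cldn3 and Cldn12 were higher there and Cgn lay between them. The summed FPKM of 8 fibroblast markers was 150 to 537 in control libraries and 73.4, 1121 and 1600 in TNF replicates 1, 3 and 4, and that of 8 endothelial markers was 24.96 to 35.2 and 3.05, 89.7 and 143. The sums of 10 horizontal basal cell markers, in 9 rows, were 695 to 2818 in control and 7130, 4575 and 4390 in the same TNF libraries. Most of each sum came from the row shared by Krt14 and Krt17, which did not pass (adjusted p = 0.0741). Of 10 sustentacular markers 5 fell and 0 rose, with sums of 4230 to 8774 in control and 9370, 4198 and 4111 FPKM with TNF. The defining sustentacular gene Cyp2g1 was at 246 to 332 FPKM in controls and 26.5, 0.221 and 0.533 FPKM with TNF. Of 7 tested markers of respiratory and ciliated epithelium 3 rose (Foxj1, Krt7 and Reg3g) and 1 fell (Dynlrb2). Krt7 and Dynlrb2 were named after their values were seen. Krt7 was at 23.4 to 48.3 FPKM in controls and 156 to 187 FPKM with TNF, and Dynlrb2 at 56.3 to 116 and 5.70 to 23.4 FPKM. Of the other lists, 8 of 8 immature neuron, 7 of 10 myeloid, 6 of 7 lymphoid and 1 of 5 microvillar markers tested fell, 1 of 6 gland and 1 of 7 fibroblast markers rose, and 0 of 6 endothelial markers passed. Over all tested rows 27.2% were called lower and 10.9% higher. A count of 1 in so short a list is therefore not read as a change of those cells. The part of these cells in the differences was not tested for any of the 9 members.

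**Figure D3:**
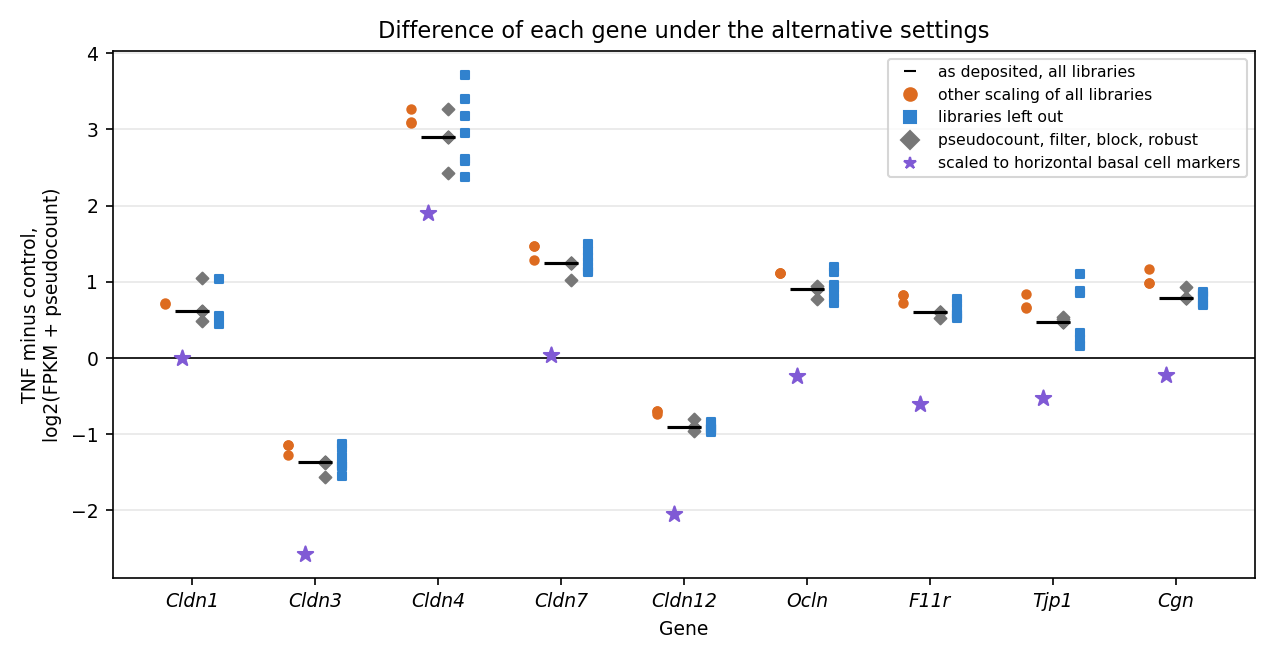
Difference of each gene (TNF minus control, log2 scale) as deposited (black bar) and under the alternative settings, grouped by colour. Cldn3 and Cldn12 stay below 0 and Cldn4 above 0 in all of them, while scaling to horizontal basal cell markers (purple star) brings Cldn7 to 0.03 and F11r to -0.61.

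The rest of the junction was followed in 5 further lists. Of their 71 tested genes, 16 rose and 14 fell, beside 10.9% higher and 27.2% lower over all rows. Among the other claudins 0 of 7 tested rose and 3 fell, with a median of -1.12. Cldn9, a claudin of the inner ear, read 60.4, 53.1 and 122 FPKM in the controls against 14.6, 6.66 and 6.99 FPKM (-2.91 ± 0.41, adjusted p = 0.00219), and its share of the claudin sum was 12.1% to 18.0% against 1.23% to 3.47%. Cldn6 differed by -1.81 ± 0.22 and Cldn8 by -1.24 ± 0.33 (adjusted p = 0.00148 and 0.0247), Cldn8 losing its call when any library but control replicate 4 or TNF replicate 1 was omitted. Cldn23 and Cldnd1 did not pass (adjusted p = 0.0575 and 0.0894). With the members included, 2 of 11 tested claudins rose and 5 fell.

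Of 11 other membrane proteins tested, 2 rose and 2 fell, with a median of 0.27. Epcam, the partner of Cldn7, did not pass (adjusted p = 0.649). The MARVEL proteins related to Ocln went different ways, Marveld3 at 1.14 ± 0.32 and tricellulin (Marveld2) at -1.11 ± 0.27 (adjusted p = 0.0314 and 0.0168). Omitting any library but control replicate 4 ended the Marveld3 call, which was at 0.02 when scaled to horizontal basal cell markers, and omitting control replicate 1 or TNF replicate 4 ended that of Marveld2. The row shared by Igsf5, a junctional adhesion molecule, and Pcp4 cannot be assigned to either gene and differed by -2.74 ± 0.68 (adjusted p = 0.0194), a call that ended when any library but control replicate 4 or TNF replicate 1 was omitted. Cxadr did not pass (adjusted p = 0.0734). The endothelial genes Cldn5, Esam and Jam2, named after their values were seen, did not pass (adjusted p = 0.355, 0.727 and 0.309). All were lowest in TNF replicate 1, as the endothelial markers were. In TNF replicates 3 and 4, Esam (13.2 and 17.8 FPKM) and Jam2 (6.16 and 9.92 FPKM) lay above every control, as the endothelial sums did. Cldn5 (9.78 and 12.2 FPKM) did not, and lay within its control range of 9.34 to 14.0 FPKM.

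Of 21 other scaffolds and polarity proteins tested, 5 rose and 4 fell, with a median of 0.25. Cgnl1, the relative of Cgn, read 1.45, 2.56 and 0.664 FPKM in the controls against 5.71, 9.07 and 8.36 FPKM (1.82 ± 0.33, adjusted p = 0.00597). Tjp3, a relative of Tjp1 named after its values were seen, rose by 1.12 ± 0.20 (adjusted p = 0.00558), and was at -0.06 when scaled to horizontal basal cell markers. Pard6g, a polarity adaptor, rose by 1.49 ± 0.35 (adjusted p = 0.0159). With that scaling Cgnl1 was at 0.96 and Pard6g at 0.34, and neither passed (adjusted p = 0.0699 and 0.463). The scaffolds Magi2 and Magi3 differed by -1.47 ± 0.38 and -1.41 ± 0.30 (adjusted p = 0.0230 and 0.0115). Omitting control replicate 1 ended the calls of Magi2 and Magi3, and omitting control replicate 4 or TNF replicate 3 or 4 ended that of Magi2. Afdn and Prkci did not pass (adjusted p = 0.491 and 0.574).

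Of 18 junction regulators tested, 5 rose and 2 fell, with a median of 0.46. Spint1, the inhibitor of matriptase, and St14, matriptase itself, rose by 2.47 ± 0.21 and 1.51 ± 0.23 (adjusted p = 0.000523 and 0.00289), and scaled to horizontal basal cell markers Spint1 kept its call (adjusted p = 0.0163) while St14 was at 0.32 (adjusted p = 0.51). Ovol1, a transcription factor of epithelial differentiation, rose by 1.78 ± 0.45 (adjusted p = 0.0203), which held only in the omission of TNF replicate 1 among the 6 omissions and not with that scaling (adjusted p = 0.0593). Arhgef2, an exchange factor that cingulin holds inactive at junctions, differed by -1.45 ± 0.24 (adjusted p = 0.00404). Spint2 and Cdc42 did not pass (adjusted p = 0.0838 and 0.465).

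Of 14 adherens junction genes tested, 4 rose and 3 fell, with a median of 0.55. E-cadherin (Cdh1) read 56.0, 71.9 and 26.6 FPKM in the controls against 128, 177 and 146 FPKM (1.62 ± 0.36, adjusted p = 0.0134, and 0.0502 when TNF replicate 3 was omitted), and was at 0.43 when scaled to horizontal basal cell markers (adjusted p = 0.361). N-cadherin (Cdh2) and the neuronal catenins Ctnna2 and Ctnnd2 differed by -1.93 ± 0.25, -4.26 ± 0.30 and -2.24 ± 0.33 (adjusted p = 0.00165, 0.000397 and 0.00280). The neuron markers were lower in the same libraries, as were many sustentacular, myeloid and lymphoid markers. Any link of these markers to Cdh2, Ctnna2 and Ctnnd2 was not tested. Ctnnb1 and Ctnnd1 did not pass (adjusted p = 0.161 and 0.0808), and the Ctnnd1 row also holds Gm28635 and Tmx2. Exons of Cxadr, Tjp3, Magi2, Afdn, Ovol1, Arhgef2 and Ctnnb1 overlap those of another gene, so their values are uncertain if strand was not used.

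**Figure D4:**
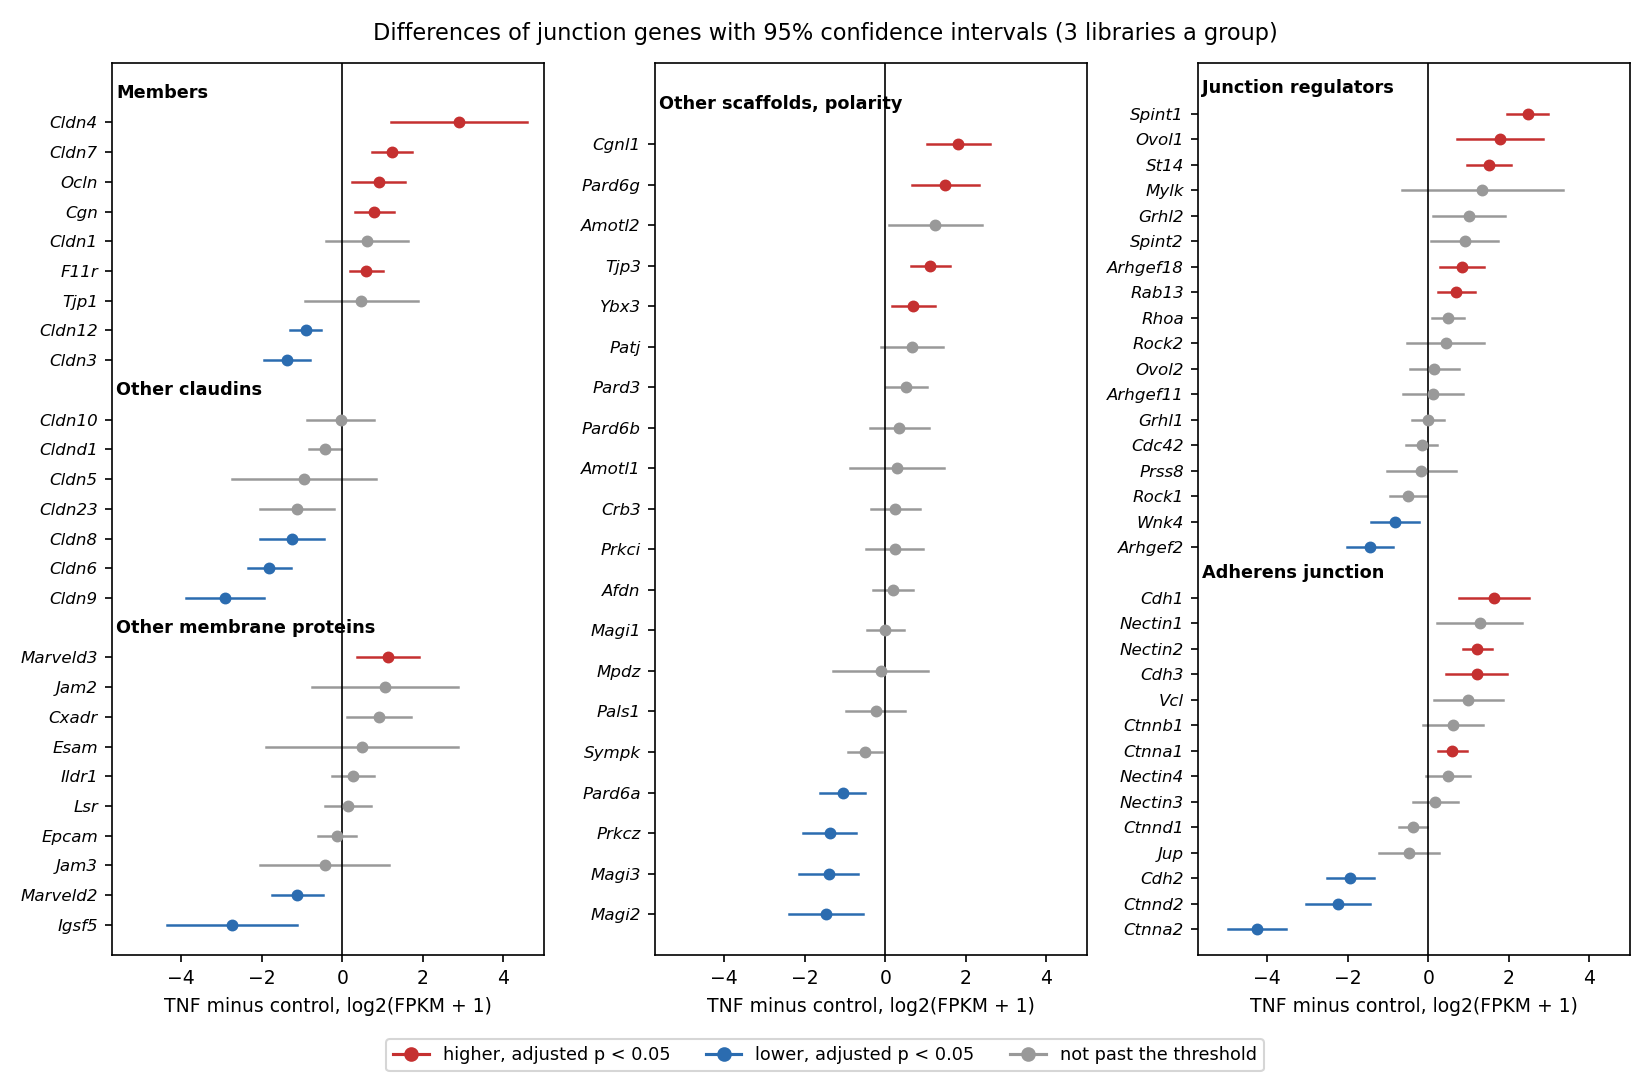
Difference between TNF and control libraries (TNF minus control, log2(FPKM + 1)) with 95% confidence interval for tested junction genes, red where higher, blue where lower and grey where the threshold was not passed. Among claudins Cldn4 (2.90) and Cldn7 (1.24) lie to the right and Cldn9 (-2.91), Cldn6, Cldn3, Cldn8 and Cldn12 to the left.

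Cldn7 had the highest mean of the 9 genes, and the rows most like it over the 6 libraries were Mbp, Cd40 and Mob3a, with Pearson r of 0.993, 0.991 and 0.990 on the log2(FPKM + 1) scale. These are descriptions over 6 libraries that share the same 2 groups, and 160 of 10574 rows with a mean of at least 5 FPKM exceeded an r of 0.95.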

How the data were processed

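RNA of sorted cells was sequenced in 3 control and 3 TNF libraries. Per the labels' protocols, 5 ng of total RNA with a RIN above 7 was amplified with a SMARTer kit and made into Nextera libraries. The authors deposited FPKM values. The submitters' processing notes name mm10, Cuffdiff 2.2.1, TopHat2 2.1.1, FastQC 0.10.1 and bcl2fastq. Settings and strand handling were not given in the sources used here. Of the values above 0, 99.98% were not whole, so no count model was used. FPKM summed to 688190 to 838417 per library. The worth of a single fragment, judged by low values, was 0.871 to 1.08 times that in control replicate 1.

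Values were compared as log2(FPKM + 1) with limma 3.58.1 (R 4.3.3, mean-variance trend, 2 groups, no covariate). A row entered with 1 FPKM or more in 3 or more libraries, and p-values were adjusted by Benjamini-Hochberg over all 15037 such rows. The script was tested on simulated data. Ratios were compared by exact permutation.

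A gene took the most abundant row that names it, 8 symbols through an older name, and 1 marker was unmatched. There were 5 pathway lists (87 symbols) and 11 marker lists (96 symbols). Named were the 9 members, in each pathway list up to 4 called genes of largest difference with a mean of 5 FPKM or more in either group and up to 2 abundant ones not called, the 2 most abundant of each marker list, and Trp63, Krt5, Krt14, Krt17, Tnf and Cyp2g1. Some genes that the rule names are not reported here. For likeness, the 3 rows closest to the most abundant member were named. Members and lists were chosen with earlier results of these data known. The alternatives were other pseudocounts, filters, scalings and thresholds, robust variance, a replicate block and omitted libraries.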

Additional observations from a re-analysis of the deposited data

How the results depend on the processing

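Cldn3 was called lower in all 17 alternatives, and Cldn12, lower in all 17, kept its call in 16 and lost it under the replicate block (-0.80, adjusted p = 0.274). Over all 9 genes, 112 of 147 alternative values kept direction and side of the threshold, 29 lost the call with the same sign, 1 gained it and 5 changed sign. Among those that changed sign, Ocln, F11r and Cgn lost their calls as well (adjusted p = 0.68, 0.267 and 0.657). Scaling to horizontal basal cell markers moved the median of all rows to -1.29 and gave the 5 sign changes, with Cldn1 at -0.0029, Ocln at -0.24, F11r at -0.61, Cgn at -0.23 and Tjp1 at -0.52. It left 1 member higher, and 296 rows higher and 8961 lower over the table. With median-of-ratios scaling 2282 rows were higher and 3198 lower, and with quantile normalization 2735 and 2965, with 5 members higher and 2 lower under both. An adjusted p below 0.01 left 1 member higher and 2 lower, and 787 rows higher and 2504 lower. Pairing of libraries by the same replicate number could not be shown (correlations of deviations -0.0638 for number 1 and -0.0874 for number 4). Over all pairs these correlations ran from -0.146 to 0.179, and with groups of 3 they cannot exclude a pairing. With the replicate number as a block, 1 member was higher (Cldn4) and 1 lower (Cldn3), and 744 rows were higher and 2246 lower. Cldn7 at 1.03, Ocln at 0.78, F11r at 0.52 and Cgn at 0.79 were no longer called (adjusted p = 0.121, 0.326, 0.448 and 0.372). Control replicate 2 and TNF replicate 3 share their number with no library of the other group. Group differences in this fit therefore rest on replicates 1 and 4 alone, and its lost calls cannot be told apart from this loss of libraries. Omitting 1 library in turn gave 1 to 6 members higher and 2 lower throughout, and 795 to 2016 rows higher and 1609 to 4924 lower. The count of 5 higher members was 1 when control replicate 1 or either of TNF replicates 3 and 4 was omitted, and 2 without control replicate 2 or 4. Without control replicate 4 and TNF replicate 1 together, 2529 rows were higher, with 5 members higher and 2 lower. Cldn1 was not tested in 6 settings, where it left the filter. No test for outlying samples was run on groups of 3, and with FPKM alone the depth behind low genes such as Cldn1 is unknown.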

Other observations

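The most abundant markers of other cells are given as values, controls (replicates 1, 2 and 4) first and TNF libraries (replicates 1, 3 and 4) second. The sustentacular gene Cbr2 read 1945 to 5250.0 and 3197 to 7829 FPKM, and Gstm1 1416 to 2412 and 596 to 1004 FPKM. Among neuron markers, Stoml3 read 681 to 1530 and 269, 5.19 and 3.75 FPKM, S100a5 762 to 1467 and 239, 1.65 and 1.63 FPKM, Stmn1 2336 to 5300 and 116 to 258 FPKM, and Calb2 488 to 1172 and 27.6, 0.221 and 0.113 FPKM. The respiratory genes Cyp2f2 and Reg3g read 500 to 797 and 867 to 1354 FPKM, and 55.8 to 368 and 975 to 1459 FPKM. The gland gene Aqp3 read 454 to 847 and 1178 to 1741 FPKM, and Aqp5 133 to 199.96 and 197.5 to 477 FPKM. The microvillar marker Ascl3, in a row it shares with Tmem9b, read 88.9 to 117 and 118 to 150 FPKM, and Foxi1 6.58 to 11.5 and 2.51 to 10.99 FPKM.

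Among stromal genes, Dcn read 77.2 to 215 FPKM in controls and 30.7, 512 and 791 FPKM with TNF, and Col3a1 12.5 to 109 and 0.707, 218 and 330 FPKM. The endothelial marker Egfl7, in a row it shares with Fam69b and Gm20532, read 11.7 to 19.4 and 2.27, 27.9 and 43.8 FPKM, and Pecam1 3.05 to 4.39 and 0.512, 23.0 and 36.8 FPKM. Among immune genes, Lyz2 read 158, 181 and 489 FPKM in controls and 487, 155 and 220 FPKM with TNF. C1qb read 43.1, 41.0 and 348 FPKM in controls and 3.69 to 10.0 FPKM with TNF, and Cd3g 5.22, 3.90 and 30.5 and 0.213 to 0.829 FPKM. Control replicate 4 held the high values of both. The myeloid marker sums were 324, 362 and 1599 FPKM in controls and 566, 185 and 259 FPKM with TNF. Lymphoid sums were 33.0, 40.8 and 171 and 71.5, 52.7 and 39.0 FPKM. Jchain read 0.218, 0.0769 and 105 FPKM in controls and 34.3 to 67.4 FPKM with TNF.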
